A study of Mus musculus with 2 samples.

Results

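The genes described here encode the core machinery that copies, transcribes and stabilises the mitochondrial genome in the heart. They were chosen by name and matched by exact symbol: Tfam, Tfb1m, Tfb2m, Polrmt, Tefm, Lrpprc, Slirp, Polg, Ssbp1 and Top1mt, which are 10 of the 55536 annotated genes in the gene tables. All 10 symbols matched 1 gene identifier each.

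Total RNA from whole heart tissue of male B6CASTF1/J mice, hybrids bred from C57BL/6J and CAST/EiJ parents, was sequenced at an age of 18 to 20 months. The labels name no treatment and no engineered allele. There were 2 libraries, called biological replicates 1 and 2, each made from 300 ng of RNA with synthetic ERCC spike-in RNAs and a stranded preparation that removes ribosomal RNA. Both form 1 group and carry 1 shared donor identifier, so no conditions could be compared. Every p-value sets the difference between these 2 libraries against counting error alone, and that difference may be technical.

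Mitochondria carry a small circular genome that is transcribed by a dedicated single-subunit RNA polymerase, POLRMT. TFAM bends promoter DNA and also packs the genome into nucleoids, TFB2M opens the promoter, and TEFM keeps the polymerase moving. All of these factors are made from nuclear genes and imported, and the heart, which depends on oxidative phosphorylation, is rich in their products.

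Replicate 1 held 39053830 expected counts over all entries and replicate 2 held 37447840. All 7 cardiac muscle markers were detected in both libraries, with summed levels of 35214 and 29534 TPM (a length-corrected share of all transcripts in a library, scaled to a fixed total), while the 2 liver markers were summed at 0 and 0.03 TPM. Of the other cell types the tissue could hold, 4 of 4 endothelial markers were summed at 130 and 128 TPM, 4 of 4 fibroblast markers at 212 and 188, 4 of 4 macrophage markers at 45 and 30.5, and 5 of 5 erythroid markers at 10875 and 7045. White adipocyte markers stood apart most, at 31.8 and 5.74 TPM with 3 of 4 detected in both libraries, and 4 of 4 atrial muscle markers were summed at 1353 and 812. Of the 4 skeletal muscle markers 1, Acta1, was detected, and Myh4 was at 0 in both libraries. The part of these cell types in any difference between the libraries was not tested.

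Nuclear respiratory factor 1 (NRF1) and GABP, an ETS-family factor, are textbook activators of nuclear genes for mitochondrial proteins, so the promoters of the genes were read for their motifs. Promoter sequences came from RefSeq on GRCm38.p6, 250 bases before to 50 after each start, and 9 of the 10 genes matched, Top1mt being the one without an entry. The ETS motif CCGGAAG, searched on both strands, was present in 6 of these 9 promoters, or 66.7%. It was present in 8.86% of 32851 promoters of the same length and in 17.6% of the 11283 promoters that belong to protein-coding genes averaging 1 TPM or more. A single window from each of the 6 promoters is shown to compare the letters around the motif, written 5′ to 3′ on the strand of the gene, with the motif in capitals. CTTCCGG is the motif on the other strand.
Tfam (chr10:71238075-71238101, minus strand): ctgccgcggaCCGGAAGtccgggcttc
Polrmt (chr10:79746608-79746634, minus strand): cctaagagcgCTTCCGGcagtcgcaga
Tefm (chr11:80142146-80142172, minus strand): gcacacgaaaCCGGAAGttgaggagga
Slirp (chr12:87443838-87443864, plus strand): acagtttggcCCGGAAGcagaactcga
Polg (chr7:79466295-79466321, minus strand): aggacctcacCCGGAAGtccctctgca
Ssbp1 (chr6:40471411-40471437, plus strand): gctccgtgcgCCGGAAGcgagccgctg
The motif began 47 bases before the RefSeq start in Tfam, 43 in Polrmt, 9 in Tefm, 48 in Slirp, 38 in Polg and 47 in Ssbp1. Slirp held 3 matches, the others beginning 146 and 11 bases before the start. RefSeq and GENCODE M21 starts differ: counted from the outermost GENCODE base, the same motif lay 189 bases inside the Tfam gene, 69 inside Ssbp1, 51 inside Polg and 13 inside Tefm.

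The NRF1 motif GCGCNTGCG, also searched on both strands, was present in 2 of the 9 promoters, those of Polrmt and Tfb2m, against 6.31% of all promoters and 13.5% of those of expressed protein-coding genes. Both are shown because these are the polymerase and the factor that opens its promoters.
Polrmt (chr10:79746563-79746591, minus strand): ggcggcgcgtGCGCGTGCGcactgcgggc
Tfb2m (chr1:179546246-179546274, minus strand): ctaggtcgttCGCATGCGCcattcgtaat
Polrmt held 2 NRF1 matches that overlap each other, beginning at the start and 6 bases before it, and the Tfb2m match began 12 bases after the start. Polrmt alone held both motifs. Neither motif was found in the windows of Tfb1m and Lrpprc. A match is a run of letters and not a measured site of binding, and an absent match speaks only of these letters in this window.

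All 10 genes were detected, at 1 TPM or more in both libraries, over a range from about 2.68 TPM for Top1mt to 63.3 TPM for Slirp. Together they took 0.0404% of the annotated gene counts in replicate 1 and 0.0356% in replicate 2, and their median level was 20.5 TPM. The RNA-stabilising pair Slirp and Lrpprc led, the initiation factors Tfb2m and Tfam and the DNA polymerase Polg followed, and Tfb1m and Top1mt closed the order. Ranked among 22015 nuclear protein-coding genes, they lay between rank 851 (Slirp) and rank 9132 (Top1mt).

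**Figure D1:**
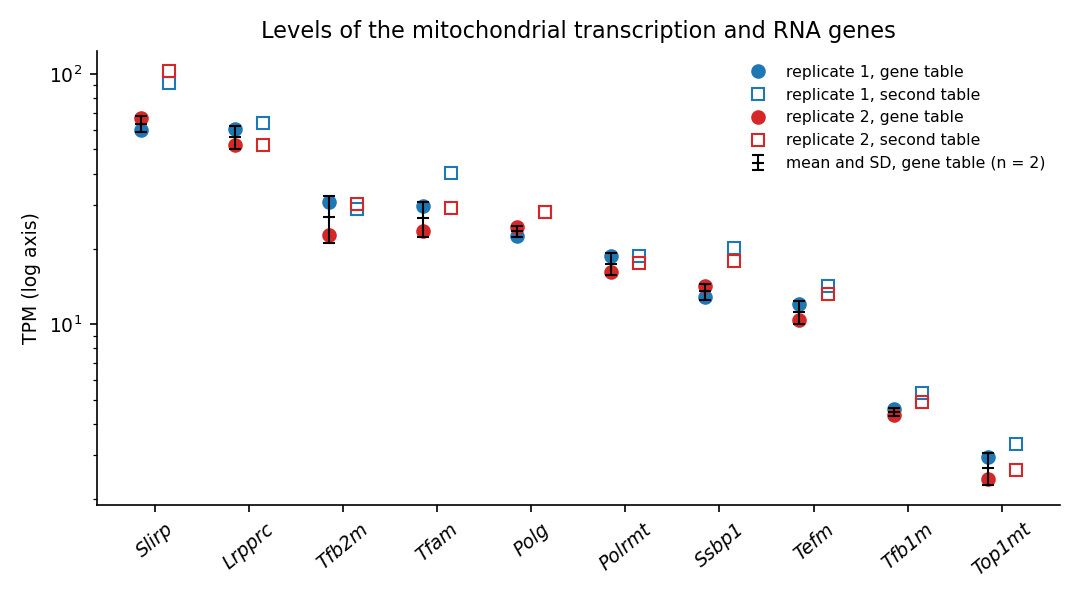
Level of each gene in TPM on a log axis, in each library and from both kinds of table, with filled circles for the gene table, open squares for the second transcript table, and bars for the mean and SD of the gene table (n = 2). Slirp and Lrpprc stand above 50 TPM in both libraries and both tables, and Tfb1m and Top1mt stand below 6 TPM.

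Tfam (ENSMUSG00000003923.14, chr10:71225464-71238280, minus strand) was at 29.7 TPM in replicate 1 and 23.7 TPM in replicate 2, a mean of 26.7 ± 4.26 (SD, n = 2). From expected counts of 1401 and 1052 its log2 ratio, replicate 2 over replicate 1, was -0.28 (95% interval -0.39 to -0.16), with a Benjamini-Hochberg adjusted p of 2.7e-05 in the exact binomial test. Replicate 1 was thus the higher library, as it was in the second transcript table with 40.3 and 29.2 TPM.

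Polrmt (ENSMUSG00000020329.12, chr10:79736123-79746581, minus strand), the RNA polymerase itself, was at 18.7 and 16.2 TPM, a mean of 17.4 ± 1.75 (SD, n = 2). Its expected counts of 1267 and 1021 gave a log2 ratio of -0.17 (-0.29 to -0.05) with an adjusted p of 0.0190 in the exact test. Replicate 1 was again the higher, but this call was lost when library sizes came from spike-ins (-0.08, adjusted p = 0.342, exact test) or from nuclear protein-coding counts (-0.12, adjusted p = 0.125, exact test).

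Tfb2m (ENSMUSG00000026492.11, chr1:179528055-179546267, minus strand) was at 30.9 TPM in replicate 1 and 22.7 TPM in replicate 2, a mean of 26.8 ± 5.76 (SD, n = 2). Its expected counts of 1551 and 1429 were close after scaling, with a log2 ratio of 0.02 (-0.09 to 0.12) and an adjusted p of 0.855 in the exact test. TPM and scaled counts therefore gave different pictures of Tfb2m, and the deposited gene length behind the TPM was 1728 bases in replicate 1 and 2149 in replicate 2. Of the 100-base stretches of Tfb2m transcripts, 876 of 3058 also occurred in the pseudogene Gm1818, which was at 0.83 and 0.99 TPM, so reads could be split between them. The deposited posterior SD of the Tfb2m count was 10.6 and 11.4 counts.

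Tefm (ENSMUSG00000046909.9, chr11:80136678-80142175, minus strand), the elongation factor, was at 12.0 and 10.4 TPM, a mean of 11.2 ± 1.18 (SD, n = 2). Its log2 ratio was -0.01 (-0.21 to 0.20), with an adjusted p of 0.997 in the exact test.

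Tfb1m (ENSMUSG00000036983.7, chr17:3519256-3557781, minus strand), which methylates the small mitochondrial ribosomal RNA, was at 4.58 and 4.35 TPM, a mean of 4.46 ± 0.163 (SD, n = 2). It rested on expected counts of 186 and 175, and the log2 ratio of 0.05 had a wide interval, -0.26 to 0.35 (adjusted p = 0.871, exact test). By whole-gene TPM its paralogue Tfb2m stood 6.74 times higher in replicate 1 and 5.23 times higher in replicate 2. In transcripts with a complete coding sequence, Tfb2m was at 18.81 and 18.88 TPM and Tfb1m at 4.52 and 4.3 TPM.

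LRPPRC and SLIRP form a complex that binds mitochondrial mRNAs and protects them from decay. Lrpprc (ENSMUSG00000024120.12, chr17:84705247-84790789, minus strand) was at 60.4 and 51.9 TPM, a mean of 56.1 ± 5.99 (SD, n = 2). With expected counts of 7640 and 6169, the most of the 10 genes, its log2 ratio of -0.17 had the narrowest interval, -0.22 to -0.12, and an adjusted p of 6.73e-11 in the exact test. The size of the difference was therefore like that of Polrmt, and the depth behind it was greater.

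Slirp (ENSMUSG00000021040.15, chr12:87443896-87452206, plus strand) was at 59.8 and 66.8 TPM, a mean of 63.3 ± 4.92 (SD, n = 2). Both libraries had 705 expected counts, and the log2 ratio was 0.14 (-0.02 to 0.29) with an adjusted p of 0.197 in the exact test. With spike-in scaling Slirp passed as higher in replicate 2, at 0.23 with an adjusted p of 0.0117 in the exact test.

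Slirp also shared 97.8% of its 3104 exonic bases with Alkbh1 and Snw1, which are transcribed from the opposite strand. Alkbh1 was at 4.26 and 2.64 TPM and Snw1 at 17.4 and 15.6 TPM. Whether counting used the strand of the reads is not given in the sources used here, and without strand, reads of these genes and of Slirp cannot be told apart.

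Lrpprc over Slirp was 1.01 in replicate 1 and 0.777 in replicate 2 by TPM, and their TPM ranges overlapped. The second transcript table put Slirp higher, at 92.3 and 102 TPM against 64.0 and 52.2 TPM for Lrpprc, and there the ranges did not overlap. By whole-gene TPM, which of the partners had the higher level thus depended on the table and, in the gene table, on the library. In complete coding transcripts Lrpprc was the higher, at 56.7 and 45.1 TPM against 15.7 and 12.3 TPM for Slirp. The second table gave 58.9 and 48.0 TPM against 1.13 and 1.47 TPM in that class.

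Polg (ENSMUSG00000039176.17, chr7:79446231-79466362, minus strand) encodes the catalytic subunit of the mitochondrial DNA polymerase. It was at 22.6 and 24.4 TPM, a mean of 23.5 ± 1.27 (SD, n = 2), with a log2 ratio of -0.01 (-0.10 to 0.09) and an adjusted p of 0.950 in the exact test. Its accessory subunit Polg2 was much lower, at 1.4 and 1.25 TPM, so that Polg over Polg2 was 16.1 in replicate 1 and 19.5 in replicate 2. That ratio uses whole-gene TPM. Little of the Polg level lay in its full coding transcript, at 1.35 and 1.09 TPM, as the transcript classes show.

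Ssbp1 (ENSMUSG00000029911.14, chr6:40471352-40484700, plus strand) encodes the protein that coats single-stranded mitochondrial DNA. It was at 12.8 and 14.2 TPM, a mean of 13.5 ± 0.983 (SD, n = 2), from expected counts of 349 and 393. Its log2 ratio of 0.31 (0.10 to 0.52) was the highest of the 10, with an adjusted p of 0.0172 in the exact test, and it was the one gene to pass as higher in replicate 2. With library sizes set by total counts it did not pass, at 0.23 with an adjusted p of 0.0794 in the exact test. The second transcript table gave TPM in the other order, 20.1 and 17.9, while its estimated counts, 373 and 405, had the same order as the gene table. Ssbp1 over Twnk, the helicase of the mitochondrial replication fork at 13.1 and 11.0 TPM, was 0.981 and 1.30, so the higher of these 2 genes changed with the library.

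Top1mt (ENSMUSG00000000934.9, chr15:75657035-75678800, minus strand), the mitochondrial topoisomerase that relieves supercoils, was the lowest, at 2.95 and 2.40 TPM, a mean of 2.68 ± 0.389 (SD, n = 2). Its 164 and 133 expected counts gave a log2 ratio of -0.16 (-0.51 to 0.17) and an adjusted p of 0.554 in the exact test. The point estimate was near those of Lrpprc and Polrmt, but the interval was too wide at this depth to separate it from 0. Its nuclear paralogue Top1 was at 16.07 and 16.95 TPM, and Top1mt over Top1 was 0.184 and 0.142.

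Within the transcription machinery, Polrmt over Tefm was 1.55 in replicate 1 and 1.56 in replicate 2 by whole-gene TPM. That was the closest between libraries of the 7 ratios computed between partner genes. By counts, Polrmt over Tefm was 3.14 and 2.79. In complete coding transcripts Polrmt was at 10.25 and 8.02 TPM and Tefm at 8.76 and 8.99 TPM, so the higher gene changed with the library. Tfam over Polrmt was 1.59 and 1.46 by whole-gene TPM.

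In the order of levels from the gene table, Slirp and Lrpprc did not differ beyond the range of the libraries, nor did Tfb2m and Tfam, or Tfam and Polg. The other neighbours did not overlap. The second transcript table gave the same genes at both ends of the order, and there Tfam overlapped Tfb2m, and Ssbp1, which then stood above Polrmt, overlapped it.

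Between the libraries, 0 of the 10 genes differed by 2-fold or by 1.5-fold in either direction. Of the 12189 genes averaging 1 TPM or more, 0.533% were at least 2-fold higher in replicate 2 and 1.13% at least 2-fold lower, and at 1.5-fold these shares were 2.17% and 2.88%. By the exact binomial test, two-sided, with Benjamini-Hochberg adjustment over all 12189 genes, 1 gene (Ssbp1) was higher in replicate 2 and 3 (Tfam, Polrmt and Lrpprc) were lower, where 10.7% of all genes passed as higher and 15.9% as lower. The same test with spike-in library sizes passed 2 genes as higher and 2 as lower, beside 23.7% and 8.12% of all genes, so the balance of directions followed the scaling. With so many of all genes passing, the counts of both libraries were further apart than counting error gives, and they were kept as separate samples.

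The median log2 ratio of the 10 genes was -0.01, beside -0.02 over all genes tested, and all 10 ratios lay within the range of the central 90% of genes, -0.43 to 0.38. Intervals and test cover counting error between 2 libraries only. In whole tissue, fewer cells of a type and less RNA per cell cannot be told apart.

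TPM values are shares of all RNA in a library, and the sum over nuclear protein-coding genes was 414428 TPM in replicate 1 and 358127 in replicate 2. Rescaled so that this sum is 1000000 in each library, Lrpprc was at 145.6 and 144.9, Polrmt at 45.0 and 45.2 and Tefm at 29.0 and 28.9. The exact test on counts with library sizes from the same genes still called Lrpprc lower in replicate 2 (-0.12, adjusted p = 1.4e-05), so rescaled TPM and counts gave different pictures of Lrpprc. Tfam remained the higher in replicate 1, at 71.6 and 66.1, as did Tfb2m, at 74.5 and 63.5, and Top1mt, at 7.12 and 6.70. The values were higher in replicate 2 for Slirp, at 144.4 and 186.5, Polg, at 54.5 and 68.1, Ssbp1, at 31.0 and 39.7, and Tfb1m, at 11.1 and 12.1. Counts with nuclear protein-coding library sizes gave log2 ratios of 0.07 for Tfb2m, 0.05 for Polg and -0.12 for Polrmt. Rescaled TPM and counts thus gave different pictures of these genes as well. The deposited gene length of Polg was 2998 bases in replicate 1 and 2545 in replicate 2.

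**Figure D2:**
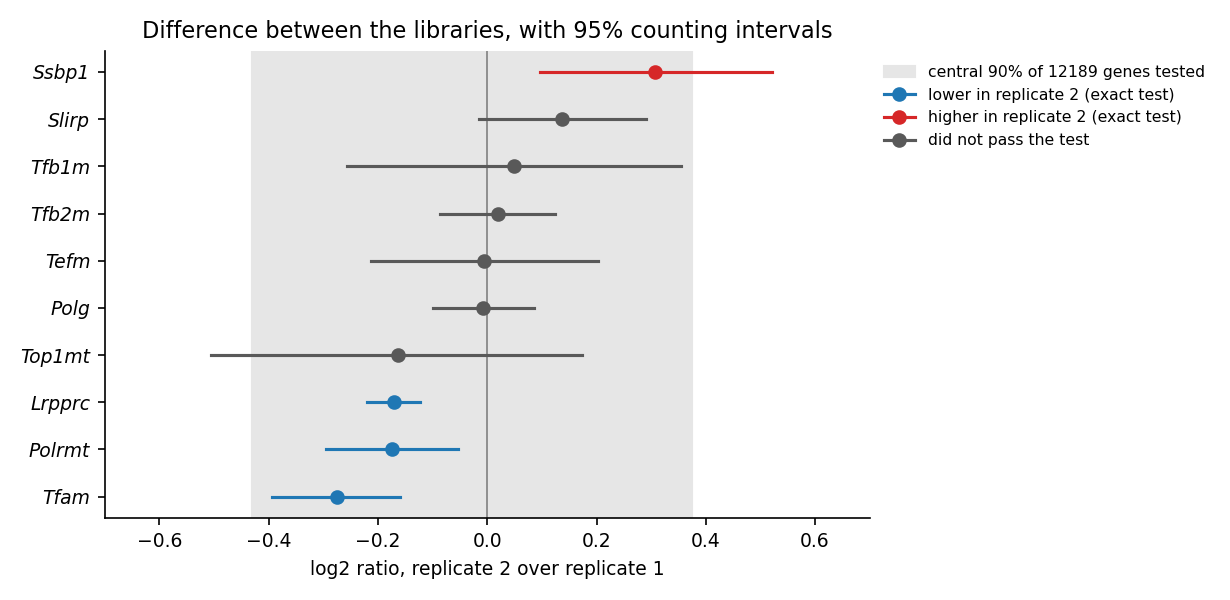
Log2 ratio of each gene, replicate 2 over replicate 1, with its 95% counting interval, and in grey the range of the central 90% of the 12189 genes tested. Tfam, Polrmt and Lrpprc lie below 0 and Ssbp1 above it with intervals that exclude 0, and the intervals of the other 6 genes include 0.

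A gene's level need not lie in a transcript that encodes the whole protein, so the annotated transcripts of each gene were read from the transcript tables. By TPM, 8 of the 10 genes were led by a transcript with a complete coding sequence, and the same transcript led in both tables for 8. The simplest were Top1mt, with 100% of its TPM in Top1mt-201, Tfb1m, with 98.9% ± 0.275 in Tfb1m-201, and Lrpprc, with 90.4% ± 4.88 in Lrpprc-201 (SD, n = 2). Ssbp1-203 took 82.4% and 91.0% of Ssbp1, and Tefm-201 took 72.9% and 86.9% of Tefm. In these 5 genes most of the level lay in a complete coding transcript in both libraries of the gene-table quantification.

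Tfam was divided among short and long coding transcripts, and the tables named different ones. Tfam-202, of 779 bases, led with 63.5% and 49.2% of Tfam TPM, but it held 2.82% on average in the second transcript table, where Tfam-203, of 899 bases, led with 50.3% and 59.8%. By expected counts the long Tfam-201, of 4167 bases, led with a mean share of 68.9%. The second table also gave 24.1% and 18.6% of Tfam to the non-coding Tfam-204, which the gene-table quantification put at 0 in both libraries. The total in complete coding transcripts was steadier, at 84.2% ± 8.51 against 78.7% ± 3.85 in the second table (SD, n = 2).

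Tfb2m-201, the complete coding transcript, took 61.0% of Tfb2m TPM in replicate 1 and 83.1% in replicate 2. The non-coding Tfb2m-205, of 458 bases, took 28.4% and 9.81%. The complete coding transcripts of Tfb2m together were at 18.8 and 18.9 TPM, and the non-coding ones at 12.05 and 3.85 TPM. The difference in Tfb2m TPM between the libraries thus lay in non-coding transcripts, which rested on 187 and 68.6 expected counts. The second table gave Tfb2m-205 10.8% and 24.3%, the opposite order.

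Polrmt-201, which holds the full coding sequence, took 48.7% and 41.3% of Polrmt TPM. The non-coding Polrmt-205, of 374 bases, took 27.1% and 33.2% from only 42.9 and 45.2 expected counts. In the second transcript table Polrmt-205 was at 0, and retained-intron transcripts took 37.7% and 41.4%, among them Polrmt-204 (18.6% and 26.3%) and Polrmt-211 (19.2% and 11.6%). By expected counts Polrmt-201 held a mean of 77.2%. A short transcript weighs more in TPM than in counts, and the tables agreed on the leading transcript of Polrmt and not on its minor ones.

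Slirp was led by Slirp-203, of 362 bases, whose coding sequence is annotated as incomplete. It took 73.7% and 73.2% of Slirp TPM, and 98.8% and 98.6% in the second table. Of its bases, 81.2% lay opposite the exons of a neighbouring gene. Complete coding transcripts took 26.3% and 18.4% of Slirp in the gene-table quantification and 1.23% and 1.44% in the second table.

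In the gene-table quantification Polg had the lowest share in complete coding transcripts of the 10 genes. Its complete coding transcript Polg-201, of 7837 bases, was at 1.35 and 1.09 TPM, which was 5.98% and 4.47% of the gene. The retained-intron transcript Polg-203, of 4589 bases, led with 23.6% and 21.8%, and Polg-213, annotated as a target of nonsense-mediated decay, took 24.4% and 19.1%. Short transcripts with incomplete coding sequences together took 30.0% and 44.3%. The second table gave the same classes, with incomplete coding the largest at 41.6% and 45.2%. Complete coding was at 4.81% and 4.12%, retained intron at 28.5% and 24.3%, and nonsense-mediated decay at 19.5% and 21.05%. The leading transcript of Polg in the second table, Polg-206, was at 10.9% and 32.3% on 9.89 and 27.0 estimated counts. By expected counts, complete coding Polg-201 held 15.96% and 14.07%. Polg is annotated with 18 transcripts, more than any other of the 10, and 8.57% of its exonic bases lie opposite exons of Fanci, which was at 0.13 and 0.01 TPM. Smaller overlaps were 3.93% of Tfb1m opposite Tiam2 and 4.65% of Top1mt opposite Gm15945, and the other 6 genes had none.

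**Figure D3:**
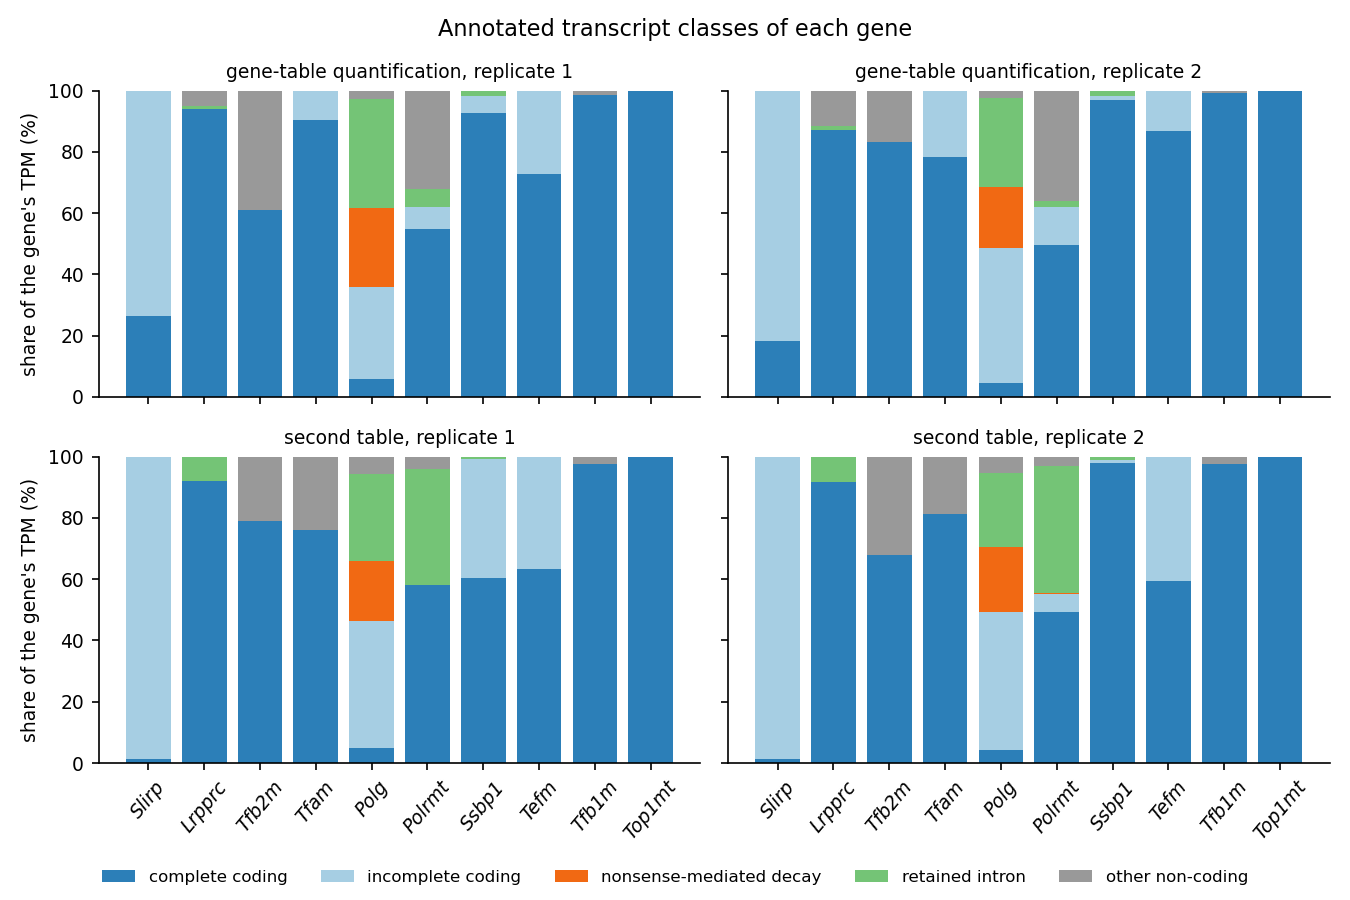
Share of each gene's TPM in each annotated transcript class, as stacked bars from 0 to 100%, for both libraries (columns) and both transcript quantifications (rows). Complete coding transcripts fill most of Tfb1m, Top1mt and Lrpprc and only 4.12% to 5.98% of Polg, and the minor classes of Tfam, Polrmt and Slirp differ between the quantifications.

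The wider pathway was read from 5 companion lists, 73 nuclear genes in all, of which 71 were tested. By the exact binomial test 3 were higher in replicate 2 and 20 lower, beside 10.7% and 15.9% of all genes, and 0 differed by 2-fold. The median log2 ratio of the 71 genes was -0.08, beside -0.02 over all genes. With spike-in library sizes 12 were higher and 7 lower, beside 23.7% and 8.12% of all genes. The median of the 71 genes was then 0.02, beside 0.08 over all genes. A change of library sizes moves every ratio by nearly the same amount, so the order of these medians could not change with the scaling. The number of lower calls did change with it.

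Among the 16 genes of mitochondrial DNA replication and upkeep, 14 were tested, 2 passed as higher, 1 as lower and 11 as neither. Over all genes tested, 10.7% passed as higher and 15.9% as lower. The median log2 ratio was 0.02. Endog, a mitochondrial nuclease, was the most abundant at 39.6 and 30.3 TPM and was the one lower gene (-0.26, adjusted p = 0.000402, exact test). Top2b, a type II topoisomerase, followed at 16.1 and 20.1 TPM. The higher genes were Top1 (0.12, adjusted p = 0.0490, exact test) and, named after its values were seen, Rrm2b (0.16, adjusted p = 0.0471, exact test), a ribonucleotide reductase subunit. Neither call held with library sizes from total counts or DESeq2, with the second transcript table or with no filter, each of which passed 0 genes of the list as higher. Dna2, a nuclease and helicase, was the lowest, at 0.20 and 0.16 TPM.

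None of the 5 termination-factor genes passed the exact test in either direction, beside 10.7% of all genes as higher and 15.9% as lower. None had an unadjusted p under 0.05. With spike-in library sizes 1 of them, Mterf2, passed as higher in replicate 2, at 0.27 with an adjusted p of 0.0394 in the exact test. Under that scaling 23.7% of all genes passed as higher. Mterf3 led at 18.6 and 17.6 TPM, followed by Mterf2 at 9.61 and 12.0 TPM, and Mterf1b was the lowest at 1.32 and 0.84 TPM.

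Of 36 genes for processing, modifying and degrading mitochondrial RNA, 0 passed as higher, 11 as lower and 25 as neither. Over all genes the shares were 10.7% higher and 15.9% lower. The median log2 ratio of the 36 genes was -0.12. Fastk, of a family of mitochondrial RNA-binding proteins, was the most abundant at 132.8 and 103.6 TPM (-0.13, adjusted p = 9.36e-05, exact test). Hsd17b10, a subunit of mitochondrial RNase P, was at 87.9 and 78.6 TPM and did not pass. Pde12, which trims poly(A) tails, was the lowest at 2.15 and 1.97 TPM. With spike-in library sizes 4 of the 36 were higher and 1 lower, beside 23.7% and 8.12% of all genes. The median log2 ratio was then -0.02, beside 0.08 over all genes.

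Of 8 nuclear regulators, 1 passed as higher, 2 as lower and 5 as neither, beside 10.7% higher and 15.9% lower over all genes. Their median log2 ratio was 0.03. Both lower genes were the most abundant of the list. Esrra, an orphan nuclear receptor that drives oxidative genes, was at 71.7 and 54.7 TPM (-0.28, adjusted p = 1.98e-16, exact test). Ppargc1a, its coactivator PGC-1α, was at 40.1 and 25.7 TPM (-0.33, adjusted p = 1.68e-20, exact test). The higher gene, named after its values were seen, was the related coactivator Ppargc1b, at 8.74 and 10.6 TPM (0.31, adjusted p = 1.17e-05, exact test). The coactivators thus differed between the libraries in opposite directions, and the difference of their ratios was not itself tested. Gabpb1, a subunit of GABP, was the lowest at 3.54 and 3.48 TPM. With spike-in library sizes 3 of the 8 were higher and 2 lower, beside 23.7% and 8.12% of all genes. The median log2 ratio was then 0.13, beside 0.08 over all genes.

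Of 8 genes for nucleoid proteins and matrix proteases, 0 passed as higher, 6 as lower and 2 as neither. Over all genes the shares were 10.7% higher and 15.9% lower. The median log2 ratio of these 8 genes was -0.16. Phb and Phb2 encode the prohibitins of the inner membrane. Phb was at 172.5 and 145.5 TPM (-0.17, adjusted p = 3.15e-08, exact test) and Phb2 at 128.6 and 94.9 TPM (-0.32, adjusted p = 4.75e-22, exact test). Ddx28, an RNA helicase, was the lowest at 4.87 and 4.28 TPM. With spike-in library sizes 3 of the 8 were lower and 0 higher, beside 8.12% and 23.7% of all genes. The median log2 ratio was then -0.06, beside 0.08 over all genes.

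The products of this machinery are the RNAs of the mitochondrial genome. The 13 mitochondrial mRNAs had a median log2 ratio of 0.58. By the exact test 12 were higher and 1 lower, beside 10.7% and 15.9% of all genes. At least 1.5-fold higher in replicate 2 were 6 of them, beside 2.17% of all genes. The range ran from -0.12 for mt-Nd6 to 0.81 for mt-Nd2, which was at 5336 TPM in replicate 1 and 8569 TPM in replicate 2. mt-Nd6, the one mRNA gene annotated on the minus strand, was at 2022 and 1705 TPM (adjusted p = 8.67e-18, exact test). With spike-in library sizes mt-Nd6 did not pass, at -0.02 with an adjusted p of 0.161 in the exact test. That scaling raises every ratio, so the other 12 could only stay higher. With total-count sizes, which lower every ratio, 12 were again higher and 1 lower. The mitochondrial rRNAs were higher by 0.34 (mt-Rnr1) and 0.10 (mt-Rnr2) in this preparation, which removes ribosomal RNA. At such high counts the test passes very small differences. With total-count sizes mt-Rnr2 passed at 0.02 (adjusted p = 1.15e-119, exact test).

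The 10 nuclear genes had ratios from -0.28 to 0.31, and 11 of the 13 mitochondrial mRNAs lay above all of them. In the second transcript table, where mt-Atp8 was listed at 0 and 12 mRNAs were tested, 7 lay above all of the nuclear genes, 10 passed as higher and 2 as lower, mt-Nd6 and mt-Nd4l (-3.92). Only 2 libraries were measured, so no correlation between the machinery and its products was computed.

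**Figure D4:**
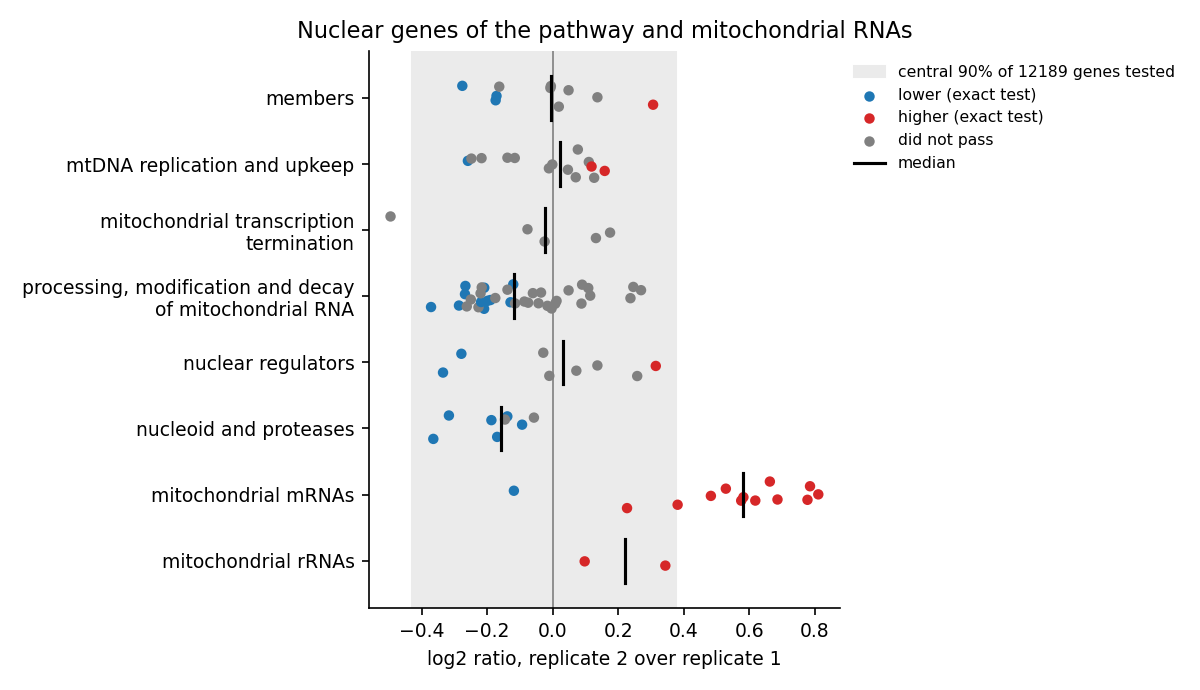
Log2 ratio, replicate 2 over replicate 1, of each tested gene (points) in the 10 named genes, the 5 companion lists, the mitochondrial mRNAs and the mitochondrial rRNAs, with a black line at each median and in grey the range of the central 90% of all genes tested. The nuclear lists have medians between -0.16 and 0.03, and the mitochondrial mRNAs have a median of 0.58.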

How the data were processed

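Heart total RNA of 2 libraries in 1 group was quantified by the authors on mm10 with GENCODE M21, per the deposited file list. The gene table and first transcript table hold expected counts and TPM as deposited, with a posterior SD of each count, and the second transcript table holds estimated counts and TPM as deposited. The tools and the strand setting are not given in the sources used here. Library totals were 39053830 and 37447840 expected counts, and members rested on 133 to 7640.

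Expected counts were rounded to whole numbers. Log2 ratios used TMM sizes from edgeR 4.0.16 in R 4.3.3 (log2 size -0.14, against -0.06 by total counts and -0.23 by spike-ins) and a prior count of 2. With 1 library on each side, edgeR's quasi-likelihood test could not be used, and an exact conditional binomial test (SciPy 1.17.1, two-sided) was run over the 12189 genes averaging 1 TPM or more, with Benjamini-Hochberg adjustment at 0.05. Intervals are 95% Clopper-Pearson intervals and cover counting error only. Spike-ins and other entries that name no gene were left out of sizes and tests. Transcripts were called complete coding, incomplete coding, nonsense-mediated decay, retained intron or other non-coding from GENCODE tags. The methods were tested on simulated counts that held counting error alone. The 2 libraries were further apart than that, so the simulation does not show how well the calls hold here.

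Alternatives were other library sizes (DESeq2 1.42.0 among them), another prior count of 0.5, no filter or a filter at 5 TPM, the second transcript table, counts in place of TPM, and each library left out. TPM over protein-coding transcripts alone was added after seeing the data. The members and lists were chosen with earlier results of these data known. Every member was named, with the 2 highest and the lowest gene of each companion list, any past 2-fold, both genes of each ratio, each leading transcript and any non-coding transcript at 10% or more.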

Additional observations from a re-analysis of the deposited data

How the results depend on the processing

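All 10 genes were detected under every alternative at 1 TPM and 0 passed 2-fold under any. Leaving out the setting with no filter, 56 alternative ratios of single genes kept direction and call, 1 gained the call and 3 lost it. The sign changed in 8, all of ratios near 0 that passed in neither fit: Tfb1m and Tfb2m with total counts and in the second transcript table, and Tefm and Polg with spike-in and nuclear protein-coding sizes. With no filter the exact test, adjusted over all annotated genes, passed 2 of the 10 genes in place of 4, because more genes were tested: Tfam and Lrpprc passed, and Polrmt (adjusted p = 0.0788) and Ssbp1 (adjusted p = 0.0715) did not. The median level of 20.5 TPM was 23.5 in the second transcript table, 53.2 when rescaled to a nuclear protein-coding sum of 1000000, 12.2 over protein-coding transcripts alone (an alternative chosen after seeing the data) and 19.5 to 20.6 with 1 library left out. The median share of the leading transcripts was 76.6%, and 73.3% to 85.0% with 1 library left out.

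In the second transcript table Lrpprc over Slirp was 0.601 in place of 0.893, Polg over Polg2 21.2 in place of 17.8, Polrmt over Tefm 1.32 in place of 1.56, Tfam over Polrmt 1.91 in place of 1.53 and Ssbp1 over Twnk 1.54 in place of 1.14. The cause was not tested. By counts, which are not corrected for length, the ratios were 9.79 for Lrpprc over Slirp, 8.25 for Tfb2m over Tfb1m, 33.03 for Polg over Polg2, 2.96 for Polrmt over Tefm, 1.07 for Tfam over Polrmt, 0.302 for Ssbp1 over Twnk and 0.0812 for Top1mt over Top1. No paired analysis was possible because the libraries form 1 group. With 133 to 186 counts a library, the log2 intervals of Top1mt (-0.51 to 0.17) and Tfb1m (-0.26 to 0.35) were wide. Small differences could therefore not be told from 0 for these genes.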

Other observations

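The quantifications also differed for mitochondrial mRNAs. mt-Atp8 was at 5467 and 7458 TPM in the gene table and listed at 0 in both libraries of the second transcript table. mt-Nd4l was at 8012 and 11802 TPM in the gene table, and at 4509 and 271 TPM in the second transcript table. mt-Co2 was at 475 and 509 TPM in the gene table and at 3045 and 3353 TPM in the second. Mean levels in the gene table and the second were 24814 and 14383 TPM for mt-Co3, and 20863 and 36756 TPM for mt-Atp6. Both tables come from the same libraries, and the cause of the difference was not tested. Among the nuclear genes of the machinery a smaller case was the pseudogene Gm1818, which shares sequence with Tfb2m: it was at 0.83 and 0.99 TPM in the gene table and at 0.00508 and 1.59 TPM in the second.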
